A study of Mus musculus with 34 samples.

Results

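The mRNA levels of 10 SWI/SNF genes were examined: the ATPases Smarca2 and Smarca4, the scaffold genes Smarcc1 and Smarcc2, the Smarcd1, Smarcd2 and Smarcd3 paralogues, and Smarcb1, Smarce1 and Actl6a. They were taken by gene symbol, as 10 of 47049 symbols in the series, and all 10 were present in each of the 3 deposited tables. The series measured RNA by sequencing in 34 libraries from mouse livers and liver tumors driven by a MYC transgene (LAP-tTA; TRE-MYC, with hepatocyte-restricted expression that starts when doxycycline is withdrawn). In the mixed strain (C57/B6, 129 and FVB), 8 Het tumors carried Arid1a fl/+ with Alb-cre, a Cre driven by the albumin promoter in hepatocytes, and 8 WT tumors carried floxed Arid1a without Cre, all from mice about 90 days old. In FVB, 4 Homo tumors (Arid1a fl/fl; Alb-cre) came from mice about 100 days old, 4 Het tumors (Arid1a fl/+; Alb-cre) from mice about 70 days old and 4 WT tumors (floxed, no Cre) from mice about 55 days old. These tumors were collected at death, so age and genotype cannot be told apart in FVB, and in each comparison with WT tumors Cre and loss of Arid1a cannot be told apart. The remaining 6 libraries came from livers of Rag1-/- mice about 42 days old with the MYC transgene and no Alb-cre. Adenovirus had been given 14 days earlier, with human ARID1A as its cargo in 3 mice (ad-ARID1A) and with Cre in the other 3 (ad-Cre). The labels call this tissue liver in one field and tumor in another, and the virus-borne Cre was in the controls alone. Nothing in the labels says that each library came from a separate mouse, so the p-values measure the spread between these samples.

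SWI/SNF complexes use the energy of ATP to slide and evict nucleosomes. Each complex holds a single ATPase, either the Smarca4 product BRG1 or the Smarca2 product BRM, on a scaffold of Smarcc, Smarcd, Smarcb1 and Smarce1 proteins, while Actl6a gives an actin-related subunit that binds the ATPase. Arid1a, the floxed gene, defines the canonical BAF form of the complex, and the balance of BRG1 and BRM is known to differ between proliferating and quiescent cells.

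The Smarca2 gene lies at chr19:26605050-26778322 on the plus strand and Smarca4 at chr9:21616169-21704230 on the plus strand (GRCm38, GENCODE M21). Their start regions, from 250 bases before to 50 bases after the RefSeq start on GRCm38.p6, are shown because these genes were set against each other throughout. The Smarca2 window is chr19:26604910-26605209 and the Smarca4 window chr9:21615919-21616218. Both are given on the plus strand, and capitals mark matches on either strand to GGGCGG (GC box) and TGANTCA (AP-1), which were chosen with the sequences in view.
Smarca2 start region: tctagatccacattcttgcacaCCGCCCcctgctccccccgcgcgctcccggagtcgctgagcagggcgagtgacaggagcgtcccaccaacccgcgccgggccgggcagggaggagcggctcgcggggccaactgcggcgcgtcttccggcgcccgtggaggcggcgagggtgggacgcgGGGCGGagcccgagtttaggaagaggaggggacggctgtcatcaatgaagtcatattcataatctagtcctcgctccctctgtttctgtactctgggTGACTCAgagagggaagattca
Smarca4 start region: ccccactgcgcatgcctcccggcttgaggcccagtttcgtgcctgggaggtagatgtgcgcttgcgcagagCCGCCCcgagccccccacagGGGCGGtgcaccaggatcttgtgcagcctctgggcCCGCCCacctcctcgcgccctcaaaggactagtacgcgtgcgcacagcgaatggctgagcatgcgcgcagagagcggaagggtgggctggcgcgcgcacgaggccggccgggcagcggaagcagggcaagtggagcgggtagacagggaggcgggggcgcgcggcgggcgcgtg
The Smarca2 window held 2 GC boxes and 1 AP-1 match, and its G and C content was 65.7%. The Smarca4 window held 3 GC boxes and no AP-1 match, with a content of 72.3%. A GC box was present in 35.7% of all 32851 such windows and an AP-1 match in 7.81%. Windows were found for 9 of the 10 genes (not Smarce1), each of which held a GC box, and 2 of these genes, Smarca2 and Smarcb1, held an AP-1 match. These matches describe letters only, and no binding was measured.

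Library depth, recovered from the step that 1 read makes in low values, had a median of 4.01 M reads in the mixed-strain table (lowest 2.28), 9.41 M in the FVB table (lowest 6.64) and 9.11 M in the Rag1-/- table (lowest 8.72). Arid1a was measured first as the targeted gene. In mixed-strain tumors it had 250 CPM (read counts scaled to library size) at the lowest, 260 at the median and 329.8 at the highest in Het, against 314 at the lowest, 349 at the median and 490.1 at the highest in WT. Its log2 fold change was -0.41 ± 0.09 (SE, n = 8 each; limma adjusted p = 0.083), which did not pass. In FVB it had 172, 256, 217 and 217 CPM in Homo, 223, 186, 185 and 292 CPM in Het, and 296, 278, 212 and 311 CPM in WT. The groups overlapped in both strains. Arid1a in Rag1-/- livers had 149, 125 and 111 CPM with ad-ARID1A, against 115, 116 and 114 CPM with ad-Cre. The added gene is human, and whether its reads were counted as mouse Arid1a was not tested. A deletion of some exons need not lower reads over the whole gene, so these levels do not check the labels.

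Hepatocyte markers were present in every group, and none of the 13 was at 0 throughout a group. Their summed level was 2825 to 6808 CPM in mixed-strain Het, 5870 to 13402 in mixed-strain WT, 7439 to 13271 in FVB Homo, 5048 to 10701 in FVB Het, 7332 to 13991 in FVB WT, 70215 to 81022 with ad-ARID1A and 80172 to 87276 with ad-Cre. The 20 cell cycle genes had a median summed level of 4452 CPM in mixed-strain Het and 3962 CPM in mixed-strain WT, while the 19 measured in Rag1-/- livers had 135 CPM with ad-ARID1A and 99.7 CPM with ad-Cre. The tables were normalized separately, so these levels across tables carry no test. In bulk tissue, fewer cells of a type and less RNA per cell cannot be told apart.

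None of the 10 genes passed limma in any of the 5 comparisons, with p-values adjusted by Benjamini-Hochberg over each whole table and a threshold of 0.05. Among all genes the same rule called 0.16% in mixed-strain Het against WT, 0.0248% in FVB Het against WT, 0.0434% in FVB Homo against WT, 0% in FVB Homo against Het and 0.32% with ad-ARID1A against ad-Cre. At an unadjusted p under 0.05 the members counted 4 of 10, 2 of 10, 1 of 10, 0 of 10 and 1 of 10 in that order of comparisons, beside 15.8%, 14.2%, 10%, 3.86% and 12.5% of all genes. Limma was the only tool run, since the deposited values are on a log2 scale.

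**Figure D1:**
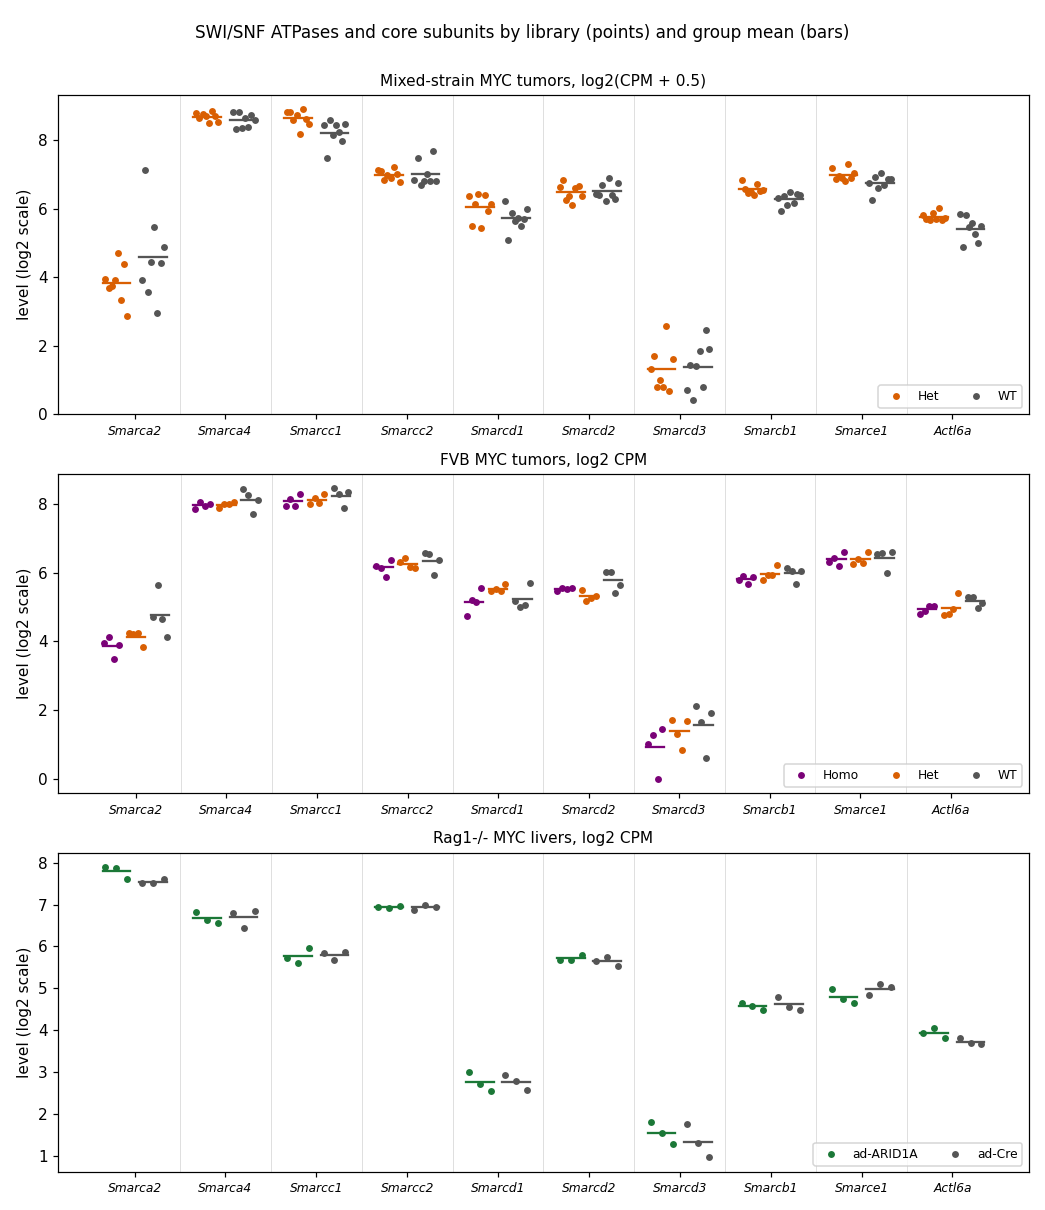
Levels of the 10 genes in every library on a log2 scale, in mixed-strain tumors (log2(CPM + 0.5), 8 Het and 8 WT), FVB tumors (log2 CPM, 4 Homo, 4 Het and 4 WT) and Rag1-/- livers (log2 CPM, 3 ad-ARID1A and 3 ad-Cre). Points are libraries and bars are group means, and the groups of a table overlap for nearly every gene. In CPM, which is not corrected for gene length, Smarca2 lies far under Smarca4 in the tumors and above it in the Rag1-/- livers. Per kilobase, the order in the Rag1-/- livers depends on the length used.

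Smarca2 was a minor ATPase transcript in the MYC tumors. In the mixed strain it had 6.78 CPM at the lowest, 13.7 at the median and 25.5 at the highest in Het, against 7.28 at the lowest, 20.9 at the median and 139 at the highest in WT. The highest value belonged to WT replicate 2, the next WT value was 43.6 CPM, and the groups overlapped. The lowest library held 24 reads of the gene, and the log2 SD was 2.83 times the counting error in Het and 7.15 times in WT. The log2 fold change was -0.77 ± 0.45 (SE, n = 8 each; limma adjusted p = 0.405), and -0.41 without WT replicate 2 (limma adjusted p = 0.647).

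In FVB tumors Smarca2 had 15.3, 17.5, 11.2 and 14.9 CPM in Homo, 19.0, 18.5, 19.0 and 14.4 CPM in Het, and 26.2, 50.2, 25.1 and 17.4 CPM in WT. WT tumors were highest on average, but the lowest WT tumor lay among the Homo and Het values. The log2 difference was -0.92 ± 0.27 for Homo against WT (limma adjusted p = 0.250) and -0.64 ± 0.27 for Het against WT (limma adjusted p = 0.290), and both used the same 4 WT libraries. Homo against Het gave -0.28 ± 0.27 (limma adjusted p = 1). Weights for library quality brought Het against WT past the threshold, at -0.78 ± 0.23 with a limma adjusted p of 0.0366. The same weights called 2287 of all 16140 genes in that comparison, beside 4 without them, so this pass is not particular to Smarca2. Without WT replicate 2 alone, the difference was -0.35 for Het and -0.63 for Homo. Without WT replicates 1 and 2, which had stood apart in an earlier analysis, it was -0.25 for Het (limma adjusted p = 0.792) and -0.52 for Homo (limma adjusted p = 0.732).

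Smarca2 in Rag1-/- livers had 239, 234 and 195 CPM with ad-ARID1A, against 182, 184 and 197 CPM with ad-Cre. The lowest ad-ARID1A liver lay just under the highest ad-Cre liver. The log2 fold change was 0.24 ± 0.10 (SE, n = 3 each; limma adjusted p = 0.339), beside a median over all genes of 0.09 that library centring brought to 0.01. Under the alternative settings that kept all libraries, scaling among them, the Smarca2 value ran from 0.16 to 0.25.

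Markers of other cells were compared between the same groups, and of those given here only Lrat, in FVB Het against WT, passed limma. Among all genes, 56.1% had a fold change above 0 in mixed-strain Het, 52.8% in FVB Het and 46.7% in FVB Homo against WT. With ad-ARID1A against ad-Cre this share was 66.3%, so marker counts there stand beside a shift of the whole table. In mixed-strain Het against WT, 13 of 13 hepatocyte, 9 of 10 stellate and fibroblast, 6 of 9 endothelial, 7 of 9 macrophage and 7 of 7 neutrophil markers had a fold change below 0. Above 0 were 5 of 7 T and NK cell, 3 of 4 B and plasma cell and 3 of 5 biliary markers. The neutrophil median was -1.72, with 5 markers at an unadjusted limma p under 0.05, beside 15.8% of all genes. The summed neutrophil level was 6.06 to 55.7 CPM in Het (Ly6g at 0) and 13.8 to 149 CPM in WT. WT replicate 2 had the highest summed hepatocyte (13402 CPM), stellate and fibroblast (1348 CPM) and endothelial (449 CPM) levels of the 8 WT tumors. In FVB Homo against WT, 10 of 10 stellate and fibroblast, 7 of 9 endothelial, 6 of 9 macrophage and 6 of 7 neutrophil markers were below 0, with summed endothelial levels of 93.6 to 169 CPM in Homo and 117 to 258 CPM in WT. There 8 of 13 hepatocyte, 0 of 1 T and NK cell, 2 of 2 B and plasma cell and 1 of 3 biliary markers were above 0. In FVB Het against WT, 8 of 10 stellate and fibroblast, 7 of 9 endothelial, 5 of 9 macrophage and 7 of 7 neutrophil markers were below 0, with summed stellate and fibroblast levels of 543 to 763 CPM in Het and 529.7 to 871 CPM in WT. In this comparison 7 of 13 hepatocyte, 1 of 1 T and NK cell, 2 of 2 B and plasma cell and 2 of 3 biliary markers were above 0. The stellate cell gene Lrat passed (log2 difference -2.50 ± 0.31; limma adjusted p = 0.0234). The neutrophil median was -1.53, and S100a8, S100a9, Mpo, Elane, Ltf and Camp were listed at 0 in all Het libraries. With ad-ARID1A against ad-Cre, 9 of 9 endothelial and 9 of 10 stellate and fibroblast markers were above 0, and 10 of 13 hepatocyte and 5 of 9 macrophage markers were below 0. Also above 0 were 2 of 2 biliary markers, and below 0 were 1 of 1 T and NK cell and 1 of 1 neutrophil markers. No B and plasma cell marker was measured there. The part of these cells in the Smarca2 values was not tested.

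Smarca4 was the more abundant ATPase transcript in the tumors. In the mixed strain it had 359 CPM at the lowest, 418 at the median and 460.4 at the highest in Het, against 319 at the lowest, 389.9 at the median and 448 at the highest in WT, and the groups overlapped. The log2 fold change was 0.10 ± 0.09 (SE, n = 8 each; limma adjusted p = 0.589). FVB tumors had 234, 269, 249 and 256 CPM in Homo, 239, 256, 256 and 269 CPM in Het, and 349.7, 307, 211 and 278 CPM in WT. WT held both the highest and the lowest FVB tumor, and its log2 SD of 0.31 was 10.8 times the counting error, the highest such ratio of the 10 members in that group. The log2 difference was -0.16 ± 0.13 for Homo and -0.15 ± 0.13 for Het against the shared WT libraries (limma adjusted p = 0.752 and 0.689). The Rag1-/- livers had 114, 99.0 and 94.4 CPM with ad-ARID1A, against 111, 87.4 and 115 CPM with ad-Cre, a log2 difference of -0.03 ± 0.12 (SE, n = 3 each; limma adjusted p = 0.953).

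The balance of the ATPases was read as the log2 difference Smarca2 minus Smarca4 within each library, which does not depend on the scaling of the library. It averaged -4.86 ± 0.60 in mixed-strain Het and -3.98 ± 1.37 in mixed-strain WT (SD, n = 8 each). In FVB it was -3.93, -3.94, -4.47 and -4.10 in Homo, -3.65, -3.79, -3.75 and -4.22 in Het, and -3.74, -2.61, -3.07 and -4.00 in WT. In Rag1-/- livers it was 1.07, 1.24 and 1.05 with ad-ARID1A, and 0.71, 1.07 and 0.77 with ad-Cre. Every tumor library therefore lay below 0 and every Rag1-/- liver above it, a difference between tables that has no test. Tissue, age, strain, Rag1 genotype and adenovirus, which only the Rag1-/- mice received, cannot be told apart in it.

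Within tables the balance passed the test in none of the 5 comparisons. For the small groups the design left little room: a lone comparison of 4 against 4 cannot go below an adjusted p of 0.143, nor 3 against 3 below 0.5, so a missed threshold there does not show that the groups were alike. The difference in means was -0.88 in mixed-strain Het against WT (two-sided exact permutation p = 0.109, adjusted over the 5 comparisons 0.274). It was -0.76 in FVB Homo against WT (exact permutation p = 0.0857, adjusted 0.274) and -0.50 in FVB Het against WT (exact permutation p = 0.229, adjusted 0.286). It was -0.26 in FVB Homo against Het (exact permutation p = 0.2, adjusted 0.286), where the smallest p that 4 against 4 allows is 0.0286. With ad-ARID1A against ad-Cre it was 0.27 (exact permutation p = 0.3, adjusted 0.3), and 3 against 3 cannot go below 0.1. Without mixed-strain WT replicate 2, whose balance was -1.19, the mixed-strain difference was -0.48, and without FVB WT replicate 2 the FVB differences were -0.25 for Het and -0.51 for Homo.

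**Figure D2:**
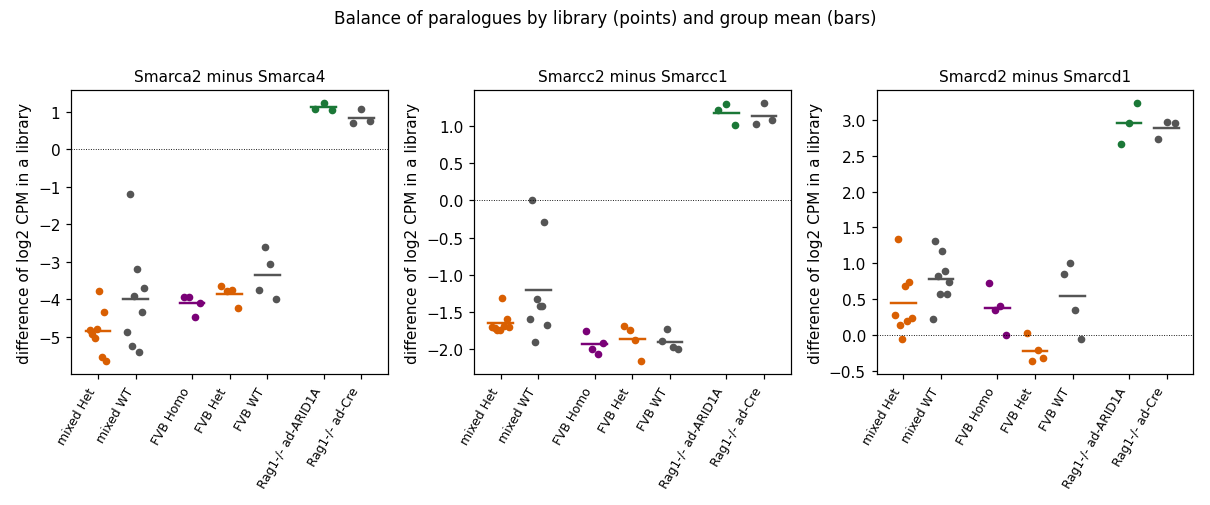
Log2 CPM of one paralogue minus the other within each library, for Smarca2 minus Smarca4, Smarcc2 minus Smarcc1 and Smarcd2 minus Smarcd1 in the 7 groups; points are libraries, bars are group means and the dotted line marks equal CPM. In the left panel the mixed-strain Het mean is -4.86 and the WT mean -3.98, while the 6 Rag1-/- livers lie between 0.71 and 1.24.

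Per kilobase of transcript, which allows the levels of different genes to be compared, Smarca2 made up a small share of the ATPase pair in the tumors. With all annotated exons as the length (14.27 kb for Smarca2 and 6.47 kb for Smarca4), its median share was 1.47% in mixed-strain Het and 2.50% in mixed-strain WT, with 16.5% in WT replicate 2. It was 2.72% in FVB Homo, 3.22% in FVB Het and 4.21% in FVB WT. In Rag1-/- livers it was 48.8% with ad-ARID1A and 43.6% with ad-Cre. With the longest principal transcript as the length (5.92 kb and 6.35 kb), a choice made after seeing the data, the medians were 3.41% and 5.72% in the mixed strain, 6.21%, 7.29% and 9.38% in FVB, and 69.3% and 64.7% in Rag1-/- livers, in the same order of groups. Smarca4 therefore exceeded Smarca2 in all tumor groups with either length, while the order in Rag1-/- livers depended on the length used.

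Across libraries, with group means subtracted, Smarca2 and Smarca4 showed no relation past the threshold. In the 16 mixed-strain tumors Pearson's r was -0.30 (permutation p = 0.380, 0.570 after adjustment over the 3 tables) and Spearman's rho -0.32 (permutation p = 0.2695, adjusted 0.458). Leaving out WT replicate 2 alone gave r of 0.03, the single sign change among the 16 libraries left out in turn. Leaving out WT replicates 2 and 4, the farthest from the median of Smarca4, gave 0.08, while leaving out WT replicates 2 and 6, the farthest from their group mean in Smarca2, gave -0.29. In the 12 FVB tumors r was 0.20 (exact permutation p = 0.778, adjusted 0.778) and rho 0.28 (exact permutation p = 0.467, adjusted 0.467), with r of 0.38 without WT replicates 1 and 3 (farthest in Smarca4), 0.05 without WT replicates 2 and 4 (farthest in Smarca2) and 0.0033 without WT replicate 2 alone. In the 6 Rag1-/- livers r was 0.54 (exact permutation p = 0.167, adjusted 0.5) and rho 0.60 (exact permutation p = 0.306, adjusted 0.458), with r of 0.49 without ad-ARID1A replicate 3 and ad-Cre replicate 2. The labels and tables name no batch within which to repeat these values.

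The genes most like each ATPase over the 16 mixed-strain tumors were picked from 9002 genes by the highest r and are given without a test. For Smarca2 they were the Schlafen gene Slfn5 (r = 0.92), Abcc3, which encodes an organic anion exporter (r = 0.90), and the semaphorin gene Sema6d (r = 0.87). Over the 12 FVB tumors the same pairs had r of 0.38, 0.62 and 0.61. For Smarca4 they were the Integrator subunit gene Ints1 (r = 0.92), the DNA polymerase delta subunit gene Pold2 (r = 0.92) and Parp1, which encodes a poly(ADP-ribose) polymerase active at DNA breaks (r = 0.91). Their r over FVB was 0.58, 0.93 and 0.79. All points share their library and its scaling.

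The scaffold paralogues Smarcc1 and Smarcc2 encode BAF core proteins on which other subunits assemble. In mixed-strain tumors Smarcc1 had 291 CPM at the lowest, 404 at the median and 473 at the highest in Het, against 178 at the lowest, 322 at the median and 379 at the highest in WT. The Het tumors were higher on average with overlap, at a log2 fold change of 0.42 ± 0.14 (SE, n = 8 each; limma adjusted p = 0.188, unadjusted limma 0.00829). Smarcc2 in the same tumors had 109 CPM at the lowest, 127 at the median and 147 at the highest in Het, against 102 at the lowest, 113 at the median and 204 at the highest in WT, a log2 fold change of -0.02 ± 0.14 (limma adjusted p = 0.946). WT replicate 2 had equal CPM of both genes, 178, and WT replicate 7 had 249.7 CPM of Smarcc1 and 204 CPM of Smarcc2, whereas Smarcc1 was at least 291 CPM in all Het tumors.

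In FVB tumors Smarcc1 had 249, 284, 247 and 315 CPM in Homo, 256, 290, 265 and 315 CPM in Het, and 355, 313, 239 and 331 CPM in WT. The log2 differences from the shared WT libraries were -0.17 ± 0.13 for Homo and -0.13 ± 0.13 for Het (limma adjusted p = 0.744 and 0.738). Smarcc2 had 74.0, 71.0, 59.3 and 83.9 CPM in Homo, 79.9, 86.8, 72.5 and 70.5 CPM in Het, and 95.7, 94.4, 61.0 and 82.7 CPM in WT. Its log2 differences from WT were -0.20 ± 0.15 for Homo and -0.09 ± 0.15 for Het (limma adjusted p = 0.726 and 0.852). The 3 groups overlapped for both genes.

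In Rag1-/- livers the order of the scaffold paralogues was the other way round. Smarcc1 had 52.7, 48.8 and 62.2 CPM with ad-ARID1A, against 57.7, 50.9 and 58.1 CPM with ad-Cre. Smarcc2 had 123, 120 and 125 CPM with ad-ARID1A, against 118, 126 and 123 CPM with ad-Cre. The median Smarcc1 share of the pair per exon kilobase was 23.3% with ad-ARID1A and 25.1% with ad-Cre, while in tumors it was 69.8% in mixed-strain Het, 65.4% in mixed-strain WT, 73.3% in FVB Homo, 71.2% in FVB Het and 73.0% in FVB WT. The principal transcript as the length moved none of these medians across 50%. Within tables, Smarcc2 minus Smarcc1 averaged -1.65 ± 0.15 in mixed-strain Het and -1.20 ± 0.68 in mixed-strain WT (SD, n = 8 each; exact permutation p = 0.0769, adjusted over 15 comparisons of paralogue balances 0.385). That difference was -0.45, and -0.27 without WT replicate 2. None of the other 4 comparisons came closer to the threshold.

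The Smarcd genes encode interchangeable BAF60 subunits that link the complex to transcription factors. Smarcd1 had 42.7 CPM at the lowest, 69.8 at the median and 84.6 at the highest in mixed-strain Het, against 33.3 at the lowest, 51.7 at the median and 73.5 at the highest in WT. Its log2 fold change was 0.32 ± 0.18 (SE, n = 8 each; limma adjusted p = 0.376), and the groups overlapped. Its FVB levels were 26.9, 37.3, 35.3 and 46.9 CPM in Homo, 44.6, 46.5, 44.6 and 50.9 CPM in Het, and 36.5, 32.2, 33.4 and 52.3 CPM in WT. Het tumors were above all but 1 of the WT tumors, at a log2 difference of 0.30 ± 0.18 from WT (limma adjusted p = 0.503), while Homo against WT gave -0.08 ± 0.18 (limma adjusted p = 0.932) and Homo against Het -0.38 ± 0.18 (limma adjusted p = 1).

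Smarcd2 in mixed-strain tumors had 68.6 CPM at the lowest, 89.1 at the median and 114 at the highest in Het, against 73.5 at the lowest, 84.6 at the median and 118 at the highest in WT, a log2 fold change of -0.02 ± 0.12 (limma adjusted p = 0.946). In FVB it had 44.6, 47.5, 46.5 and 46.9 CPM in Homo, 45.6, 36.0, 38.6 and 40.5 CPM in Het, and 65.8, 64.9, 42.5 and 50.2 CPM in WT. Het tumors were lowest on average, and a single Het tumor lay within the WT range. The log2 difference of Het from WT was -0.46 ± 0.14 (SE, n = 4 each; limma adjusted p = 0.173, unadjusted limma 0.00638), and that of Homo from WT was -0.25 ± 0.14 (limma adjusted p = 0.608). Library quality weights brought Het against WT past the threshold, at -0.64 ± 0.11 with a limma adjusted p of 0.00485. These weights called 2287 of all 16140 genes, beside 4 without them. Without WT replicates 1 and 2 the Smarcd2 difference was -0.21 (limma adjusted p = 0.644).

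Smarcd3 was near the detection limit, and its values are uncertain because 42.4% of its exon bases overlap the opposite-strand gene Chpf2 and the sources used here do not say whether counting used strand. It had 1.10 to 5.50 CPM in mixed-strain Het, 0.840 to 5.02 CPM in mixed-strain WT, 1.78 to 3.27 CPM in FVB Het and 1.51 to 4.32 CPM in FVB WT. In FVB Homo it had 2.01, 2.40 and 2.71 CPM in replicates 1, 2 and 4 and was listed at 0 in replicate 3, where values up to 1 CPM are set to 0. The log2 difference of Homo from WT was -0.64 ± 0.39 on this floored scale (limma adjusted p = 0.633). Rag1-/- livers had 3.48, 2.89 and 2.43 CPM with ad-ARID1A, against 3.39, 2.45 and 1.95 CPM with ad-Cre, and the groups overlapped.

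Smarcd2 made up most of the Smarcd transcripts in Rag1-/- livers. It had 51.3, 50.9 and 55.3 CPM with ad-ARID1A, against 50.6, 54.2 and 46.5 CPM with ad-Cre, while Smarcd1 had 8.06, 6.54 and 5.86 CPM with ad-ARID1A, against 7.57, 6.87 and 5.98 CPM with ad-Cre. The median Smarcd2 share of the 3 genes per exon kilobase was 86.6% with ad-ARID1A and 87.4% with ad-Cre. In tumors it was 56.6% in mixed-strain Het, 65.3% in mixed-strain WT, 58.7% in FVB Homo, 47.2% in FVB Het and 61.5% in FVB WT. Smarcd2 minus Smarcd1 averaged -0.22 ± 0.18 in FVB Het and 0.54 ± 0.49 in FVB WT (SD, n = 4 each; exact permutation p = 0.0571, adjusted 0.385). It averaged 0.37 ± 0.30 in FVB Homo, and Homo against Het gave an exact permutation p of 0.0571 (adjusted 0.385). None of the 15 comparisons over the Smarcc2, Smarcd2 and Smarcd3 balances passed.

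Smarcb1 encodes a core subunit that contacts the nucleosome, and is a tumor suppressor in humans. In mixed-strain tumors it had 83.4 CPM at the lowest, 91.4 at the median and 113 at the highest in Het, against 59.97 at the lowest, 80.9 at the median and 89.5 at the highest in WT. Het tumors were higher on average with overlap, at a log2 fold change of 0.29 ± 0.10 (SE, n = 8 each; limma adjusted p = 0.200, unadjusted limma 0.0100). FVB levels were 55.7, 60.5, 51.3 and 59.3 CPM in Homo, 54.9, 61.8, 61.0 and 75.1 CPM in Het, and 70.0, 66.7, 51.3 and 66.7 CPM in WT. Its log2 differences from WT were -0.16 ± 0.13 for Homo and -0.01 ± 0.13 for Het (limma adjusted p = 0.749 and 0.984), and the groups overlapped. Levels in Rag1-/- livers were 25.1, 23.8 and 22.3 CPM with ad-ARID1A, against 27.9, 23.6 and 22.3 CPM with ad-Cre.

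Smarce1, which encodes the HMG-box subunit, had 111 CPM at the lowest, 120.5 at the median and 158 at the highest in mixed-strain Het, against 76.2 at the lowest, 111 at the median and 129.7 at the highest in WT. The log2 fold change was 0.24 ± 0.11 (SE, n = 8 each; limma adjusted p = 0.293, unadjusted limma 0.0396), and the groups overlapped. In FVB it had 79.9, 86.2, 74.0 and 98.4 CPM in Homo, 76.6, 85.6, 78.2 and 97.0 CPM in Het, and 93.1, 96.3, 64.0 and 97.7 CPM in WT, with differences from WT of -0.04 ± 0.15 for both (limma adjusted p = 0.960 for Homo and 0.939 for Het). Rag1-/- livers had 31.8, 26.9 and 25.1 CPM with ad-ARID1A, against 28.6, 34.3 and 32.4 CPM with ad-Cre, a log2 difference of -0.19 ± 0.13 (limma adjusted p = 0.595).

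Actl6a had 49.9 CPM at the lowest, 52.1 at the median and 63.9 at the highest in mixed-strain Het, against 29.1 at the lowest, 44.1 at the median and 56.3 at the highest in WT. The Het values began within the WT range and reached above it, at a log2 fold change of 0.35 ± 0.14 (SE, n = 8 each; limma adjusted p = 0.236, unadjusted limma 0.0194). In FVB it had 27.7, 29.4, 32.7 and 32.7 CPM in Homo, 27.1, 27.7, 31.1 and 42.2 CPM in Het, and 39.1, 39.1, 31.8 and 35.0 CPM in WT, with log2 differences from WT of -0.24 ± 0.15 for Homo and -0.20 ± 0.15 for Het (limma adjusted p = 0.642 and 0.624). The values in Rag1-/- livers were 15.2, 16.4 and 14.1 CPM with ad-ARID1A, against 14.0, 12.9 and 12.8 CPM with ad-Cre. Of all members and comparisons this was the single pair of groups that did not overlap, as was true of 13.9% of all genes in that direction and 17.4% in either. In the comparisons where no member lay apart, the share over all genes was 0.137% for mixed-strain Het, 6.88% for FVB Het and 4.07% for FVB Homo against WT, and 2.67% for FVB Homo against Het. The log2 difference of Actl6a was 0.20 ± 0.14 (limma adjusted p = 0.604). The opposite-strand gene Mrpl47 shares 11.6% of its exon bases.

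The members were also described as a set. In mixed-strain Het against WT, 6 of 10 had a fold change above 0, with a median of 0.17 beside 0.05 over all genes. In FVB Het against WT, 1 of 10 was above 0, with a median of -0.14 beside 0.02 over all genes. In FVB Homo against WT, 0 of 10 were above 0, with a median of -0.18 beside -0.02 over all genes. Among all genes, 56.1%, 52.8% and 46.7% were above 0 in these comparisons. In FVB Homo against Het 2 of 10 were above 0, beside 41.1% of all genes. Without FVB WT replicates 1 and 2, 4 of 10 were above 0 in Homo (median -0.05) and 6 of 10 in Het (median 0.08), where they were Smarca4, Smarcb1, Smarcc2, Smarcd1, Smarcd3 and Smarce1. Without mixed-strain WT replicate 2 alone, 7 of 10 were above 0 (median 0.12). Leaving out Het replicate 5 as well gave 9 of 10, all but Smarca2 (median 0.15). Some of these lay close to 0, with Smarcc2 at 0.056 and both Smarcd2 and Smarcd3 at 0.014. The share over all genes was not computed with libraries left out. With ad-ARID1A against ad-Cre, 5 of 10 were above 0, beside 66.3% of all genes, with a median of 0.0017 beside 0.09 over all genes.

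**Figure D3:**
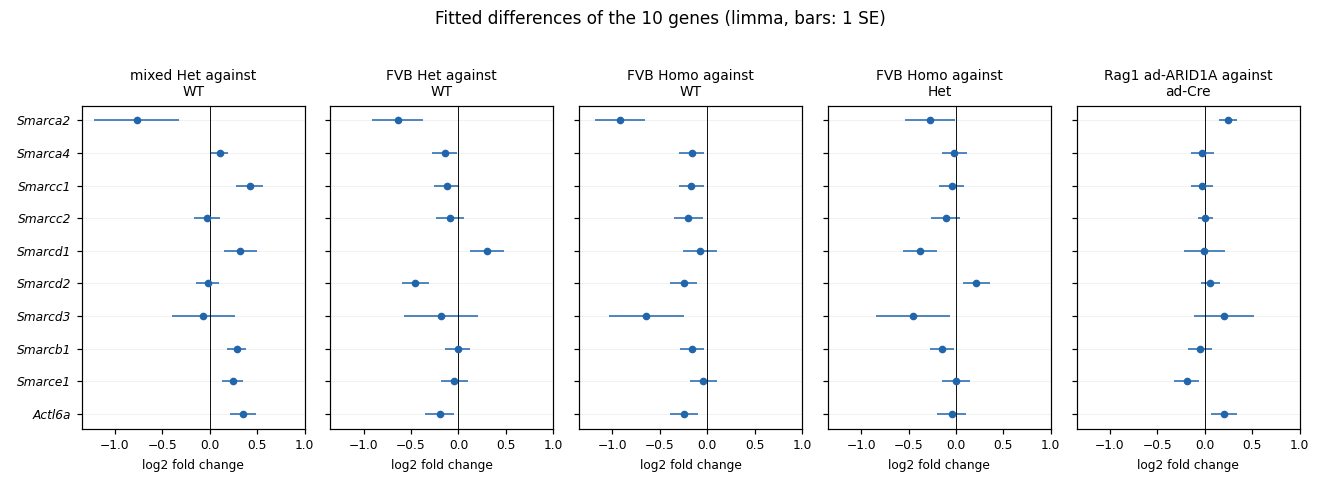
Log2 fold changes of the 10 genes in the 5 comparisons, fitted with limma; points are estimates, bars are 1 SE and the vertical line marks no difference. Smarca2 has wider bars than Smarca4 in the tumor comparisons and lies at -0.77, -0.64 and -0.92 in the comparisons with WT tumors, and no estimate passes the threshold.

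Other genes of the machinery also gave no call. Among the SWI/SNF subunits outside the 10 members, 13 of 18 tested were above 0 in mixed-strain Het against WT (median 0.19) and 0 passed limma, with 6 at an unadjusted p under 0.05. Those with the smallest p were Arid1a, Dpf3, which encodes a histone-reading subunit (-0.65 ± 0.20; limma adjusted p = 0.158), and the non-canonical BAF bromodomain gene Brd9 (0.32 ± 0.11; limma adjusted p = 0.202). In the same comparison 13 of 17 ATPase genes of other remodeler families (median 0.22), 14 of 18 Polycomb genes (median 0.25) and 19 of 20 cell cycle genes (median 0.21) were above 0 and 0 passed limma, with 4, 4 and 7 at an unadjusted p under 0.05. Among all genes 56.1% were above 0 there, and 15.8% had an unadjusted limma p under 0.05. In FVB Homo against WT the corresponding counts above 0 were 6 of 18 SWI/SNF subunits, 10 of 17 remodeler ATPases, 9 of 18 Polycomb genes and 2 of 20 cell cycle genes, with 0, 1, 0 and 2 at an unadjusted p under 0.05. Of all genes in that comparison, 46.7% were above 0 and 10% had an unadjusted limma p under 0.05. With ad-ARID1A against ad-Cre the counts above 0 were 11 of 17, 15 of 16, 12 of 18 and 16 of 19, where 66.3% of all genes were above 0.

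The order of levels per exon kilobase was alike in the tumor groups. Smarca4 was highest in all 5 tumor groups, at 63.5 ± 5.47 CPM per kb in mixed-strain Het, 59.4 ± 8.44 in mixed-strain WT, 38.9 in FVB Homo, 39.4 in FVB Het and 44.2 in FVB WT, followed by Smarcc1. These neighbours overlapped in every tumor group except mixed-strain WT. Smarca2 and Smarcd3 were the lowest in all 5. In Rag1-/- livers Smarcc2 was highest, at 22.1 CPM per kb with ad-ARID1A and 22.02 with ad-Cre, and lay apart from Smarca4, the next. With principal transcripts as the length, Smarcc1 came first in mixed-strain Het and all FVB groups, and Smarca2 came first in Rag1-/- livers.

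Several members varied together across tumors. The test of all member pairs was chosen after seeing the data, in both strains, so its adjusted p-values are descriptive. Over 45 pairs in the 16 mixed-strain tumors, with group means subtracted, 33 Pearson correlations were positive, and 12 passed by Pearson and 10 by Spearman at an adjusted p under 0.05 (permutation within groups, adjusted over the 45 pairs), all positive. The 2 libraries left out here were those farthest from their group mean in the first gene of the pair. Smarcb1 with Smarce1 had r = 0.92 (permutation p = 4e-05, adjusted 0.0018) and rho = 0.88 (permutation p = 4e-05, adjusted 0.0018), with r = 0.86 without the 2 farthest libraries. Smarcc1 with Actl6a had r = 0.82 (permutation p = 0.0001, adjusted 0.00225) and rho = 0.81 (permutation p = 0.00105, adjusted 0.0158), with r = 0.81 without the 2 farthest libraries. None of the 9 pairs with Smarca2 passed, and their median r was -0.35, or 0.03 without WT replicate 2. Pairs of other genes were not counted in the same way, so these counts cannot be called particular to the members.

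In the 12 FVB tumors 41 of 45 Pearson correlations were positive, and 6 passed by Pearson and 3 by Spearman. Smarcc1 with Smarce1 had r = 0.95 (permutation p = 0.00123, adjusted 0.0217) and rho = 0.89 (permutation p = 0.0013, adjusted 0.0358), with r = 0.97 without the 2 farthest libraries. Smarcb1 with Smarce1 had r = 0.91 (permutation p = 0.0026, adjusted 0.0293) and rho = 0.83 (permutation p = 0.00998, adjusted 0.0898), with r = 0.71 without the 2 farthest libraries. The median over all 45 pairs was 0.54, and 0.28 without WT replicate 3, which was the lowest FVB library for Smarca4, Smarcc1 and Smarce1. The shared scaling of a library enters every pair, and pairs of other genes were not counted in FVB either.

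**Figure D4:**
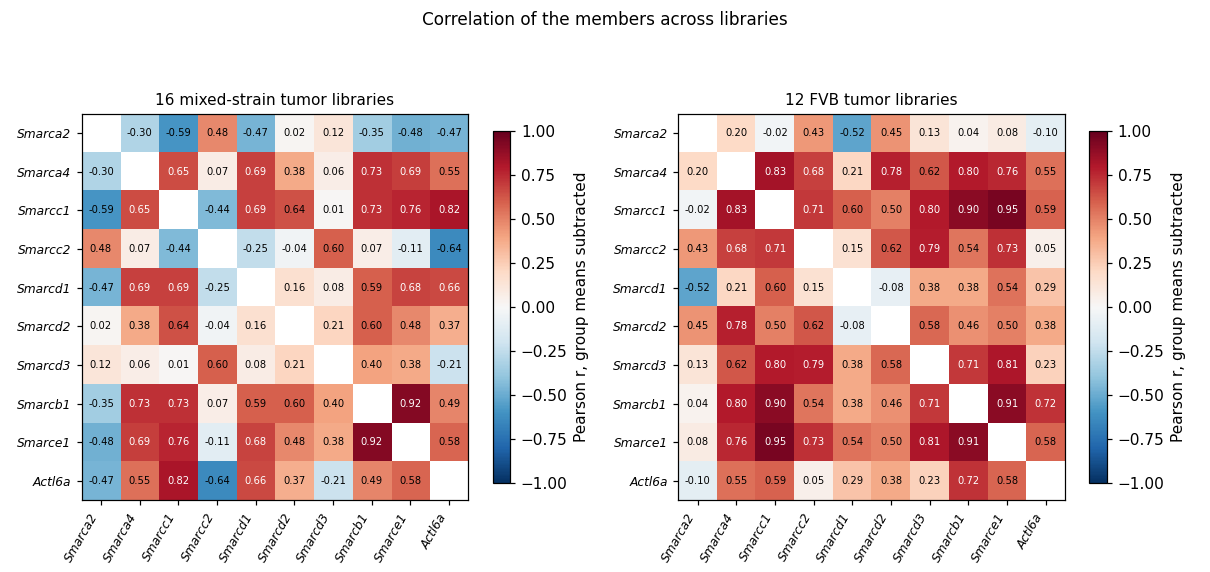
Pearson correlations between the 10 genes across 16 mixed-strain tumor libraries (left) and 12 FVB tumor libraries (right) after group means were subtracted; color and printed value give r for each pair. Smarcb1 with Smarce1 is at 0.92 and 0.91, while the 9 pairs with Smarca2 run from -0.59 to 0.48 in the mixed strain.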

How the data were processed

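RNA from 34 mouse liver or liver tumor libraries (Trizol and miRNeasy extraction, Nugen kit, per the labels) was deposited as 3 tables of log2 values: log2(CPM + 1) for the mixed strain, and log2 of normalized CPM for the FVB and Rag1-/- tables, which the authors normalized separately and in which values up to 1 CPM stand at 0. HISAT2, featureCounts, SAMtools and Trim Galore, with the build GRCm38/mm10, are named per the submitters' processing notes. For the versions, the strandedness and the counting mode, the sources used here state nothing. The first table's own name says RPKM, while its values sum to 999553 to 999898 per library after the log2 is undone, as CPM would. In addition, 27 of its symbols were turned into dates.

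The 10 members and all gene lists were chosen with earlier results of these data known, so no count over them is independent support. Named genes were the members, Arid1a, up to 3 genes with the smallest p of a list in a comparison, and the 3 genes most like each ATPase. Mixed-strain values were taken back to CPM, filtered at a mean of 0.5 CPM (17552 genes) and set to log2(CPM + 0.5), so fold changes understate those of low genes. The FVB (16140) and Rag1-/- (14074) genes were used as deposited. Limma 3.58.1 (R 4.3.3) was fitted to each whole table, FVB with its 3 groups in 1 fit. Paralogue balances used two-sided exact permutation of the libraries (NumPy 2.4.6). Depth was recovered by choosing the step that best placed low values at whole reads. Values under 1.5 CPM then lay within 0.1 reads of whole numbers in 100% of cases. With 3 to 7 such distinct values per library and the step fitted to low values, this is not an independent check of depth. Counting error from this depth covers counting only. Het and Homo FVB samples share their treatment text, so the genotype field was used. The descriptions of the ad-ARID1A samples carry names of the ad-Cre style and were matched by number. Lengths came from GENCODE M21 and start regions from RefSeq. The fits were tested on simulated data. Alternatives were another pseudocount, filter, scaling, library weights, a replicate block and libraries left out. One marker list is not reported here.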

Additional observations from a re-analysis of the deposited data

Results flagged for a closer look

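Within groups of 4 to 10 libraries, the highest or lowest library was far from the others (Dixon's 95% limit) in 4 of the 70 groups examined, where chance gives about 1 in 20. For Smarcc2 minus Smarcc1, mixed-strain Het replicate 5 was highest at -1.30 on the log2 scale, while the other Het tumors lay between -1.74 and -1.59. Smarca2 was lowest in FVB Het replicate 4, at a log2 CPM of 3.85, against 4.21 to 4.25 in the other Het tumors. FVB WT replicate 3 was lowest for Smarcb1, at a log2 CPM of 5.68 beside 6.06 to 6.13 in the other WT tumors. The same library was lowest for Smarce1, at 6.0 beside 6.54 to 6.61. It had the smallest depth of the FVB libraries, 6.64 M reads, and the part of depth in these values was not tested.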

How the results depend on the processing

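Of 1090 member and balance values recomputed under alternatives, 89 had the opposite sign to the value reported, none of these past the threshold, and the cause was not tested. The count of members changed stayed at 0 in all 5 comparisons under every alternative except library weights in FVB Het against WT, which called 2 (Smarca2 and Smarcd2) while 2287 genes in all were called, beside 4 reported. Over all genes, calls ranged from 14 to 101 under the other alternatives in the mixed strain (28 reported) and from 8 to 138 with 1 library left out, in FVB Homo against WT from 0 to 21 (7 reported) and from 0 to 36, in FVB Het against WT from 0 to 256 with 1 library left out, in Homo against Het from 0 to 3 (0 reported), and in Rag1-/- from 1 to 59 (45 reported) and from 0 to 19. Replicate numbers were not used as pairs, and correlations of same-numbered libraries ran from -0.20 to 0.28. Against WT, the best match had the same number for 2 of 8 mixed-strain Het, 2 of 4 FVB Het and 3 of 4 FVB Homo libraries. It did for 1 of 4 in Homo against Het and 1 of 3 in Rag1-/-, so these values do not settle whether numbers pair samples. With the numbers as a replicate block, 0 members were called. The Smarca2 minus Smarca4 balance then had an adjusted exact permutation p of 0.215 in the mixed strain and 0.25 to 0.3 elsewhere. That balance ranged, with 1 library left out, from -1.08 to -0.48 in the mixed strain, -0.71 to -0.25 in FVB Het against WT, -0.97 to -0.51 in Homo against WT, -0.38 to -0.14 in Homo against Het and 0.20 to 0.38 in Rag1-/-. The tests of all member pairs and some alternatives (member pairs without 1 library, principal transcript lengths, other balances) were chosen after seeing the data. Smarcd3 could not be fitted under a mean log2 CPM of 2 in FVB and Rag1-/-. Depth limits Smarcd3 most, at 2.98 reads in its lowest mixed-strain library.

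Log2 differences whose sign turned were as follows. In mixed-strain Het against WT, library weights gave Smarcc2 0.089, quantile scaling gave Smarcd3 0.013, and leaving out WT 2 and Het 5 gave Smarcc2 0.056, Smarcd2 0.014 and Smarcd3 0.014. Leaving out FVB WT 1 and WT 2 gave, for Het against WT, Smarca4 0.0725, Smarcb1 0.10, Smarcc2 0.12, Smarcd3 0.14 and Smarce1 0.0875, and for Homo against WT, Smarca4 0.055, Smarcc2 0.01, Smarcd2 0.005 and Smarce1 0.09. Library weights gave Smarcd1 0.028 in Homo against WT. In Homo against Het, centred medians gave Smarca4 0.03, Smarcc1 0.005 and Actl6a 0.0025, quantile scaling gave Smarca4 0.0061 and Actl6a 0.0068, and library weights gave Smarca4 0.0027, Smarcc1 0.019 and Actl6a 0.019. In Rag1-/- livers centred medians gave Smarcc2 -0.073 and Smarcd2 -0.02, quantile scaling gave Smarcc2 -0.051 and Smarcd2 -0.0125, and library weights gave Smarcd1 0.0074. The FVB correlation of Smarca2 with Smarca4 was -0.12 with centred medians, and the mixed-strain one ran from -0.55 to 0.025 with 1 library left out.

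With 1 library left out, these ranges crossed 0. In the mixed strain they were -0.074 to 0.070 for Smarcc2, -0.074 to 0.032 for Smarcd2 and -0.25 to 0.088 for Smarcd3. In FVB Het against WT they were -0.11 to 0.054 for Smarcb1, -0.51 to 0.0025 for Smarcd3, -0.19 to 0.016 for Smarce1 and -0.026 to 0.13 for Smarcc2 minus Smarcc1. In Homo against WT they were -0.21 to 0.078 for Smarcd1, -0.19 to 0.022 for Smarce1 and -0.0925 to 0.023 for Smarcc2 minus Smarcc1. In Homo against Het they were -0.049 to 0.0175 for Smarca4, -0.11 to 0.013 for Smarcc1, -0.12 to 0.10 for Actl6a, -0.0725 to 0.072 for Smarce1 and -0.25 to 0.22 for Smarcd3 minus Smarcd1. In Rag1-/- livers they were -0.15 to 0.048 for Smarca4, -0.11 to 0.047 for Smarcb1, -0.13 to 0.047 for Smarcc1, -0.02 to 0.03 for Smarcc2, -0.13 to 0.10 for Smarcd1, -0.025 to 0.12 for Smarcc2 minus Smarcc1 and -0.078 to 0.21 for Smarcd2 minus Smarcd1.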
